A study of Homo sapiens with 24 samples.

Results

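Glycolysis enzymes and hypoxia targets are described here as 37 genes in 2 prostate cancer sublines after siRNA against POM121, which encodes a nucleoporin anchored in the nuclear membrane. The genes were taken by symbol from a list of 37, and all 37 were among the 25277 symbols of the table. They comprise 16 enzymes of the path from glucose to lactate, 4 glucose and monocarboxylate transporters, 3 fructose-2,6-bisphosphate enzymes, 12 other hypoxia targets and 2 HIF alpha subunits. The cells were 22Rv1DR and DU145DR, aggressive sublines of the human prostate cancer lines 22Rv1 and DU145, known from earlier work as docetaxel-resistant derivatives. Each subline received siPOM121 construct 1, siPOM121 construct 2, or a control that the labels call Control without saying what it contained. All groups were kept in RPMI medium with serum and antibiotics, and the labels name no low-oxygen treatment. RNA-seq was run on 12 poly(A) libraries, 2 per group, each read on 2 lanes. The labels do not give separate cultures for the libraries within a group, and p-values therefore reflect library-to-library spread alone, which may be technical.

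Glycolysis splits glucose into pyruvate, and lactate dehydrogenase then turns pyruvate into lactate. Cancer cells commonly run this path at a high rate even with oxygen present. The HIF alpha subunits HIF1A and EPAS1 are marked for destruction by the prolyl hydroxylases EGLN1 and EGLN3 when oxygen is available. At low oxygen they persist, pair with ARNT and bind promoters and enhancers of genes for glycolysis, blood vessel growth and mitochondrial removal. Since this control acts mainly on the HIF proteins, HIF1A and EPAS1 transcripts are not a measure of HIF activity.

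Of the 37 genes, 35 were tested. CA9, a carbonic anhydrase of the cell surface that is widely used as a hypoxia marker, and SLC2A3, the glucose transporter GLUT3, were listed at 0 in all 24 samples. Values at or under 1 FPKM (fragments scaled to transcript length and to library size) are listed at 0 in the table, so a 0 can stand for a low level. Differences are log2 fold changes with their standard error from limma, a linear model with moderated variance. A gene was called higher or lower at a Benjamini-Hochberg adjusted p under 0.05 over the 13622 symbols tested.

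The target and the cells were checked first. POM121 had 7.68 and 7.81 FPKM with construct 1 and 6.73 and 7.43 with construct 2 in 22Rv1DR, against 38.5 and 37.8 in controls. In DU145DR it had 13.4 and 13.5 FPKM with construct 1 and 12.5 and 13.2 with construct 2, against 21.6 and 21.3 in controls. Both lines thus kept POM121 transcript, DU145DR more of it. The gene shares sequence with its near-identical copy POM121C, so its level is uncertain. POM121C was lower too, with log2 fold changes of -2.58 in 22Rv1DR and -0.71 in DU145DR on the mean of both constructs. The falls of POM121 and POM121C cannot be told apart here. The prostate markers KLK2, KLK3, TMPRSS2 and HOXB13 were above the floor in every 22Rv1DR library and listed at 0 in every DU145DR library. The blood markers PTPRC and CD3E, the endothelial markers PECAM1, VWF and CDH5, and the stromal markers COL1A2, DCN and PDGFRB were listed at 0 in all libraries. CD68 and COL1A1 reached no more than 15.7 and 8.95 FPKM. The construct 2 libraries of 22Rv1DR, coded 4C and 5C, differed from each other more than the 2 libraries of any other group did. Their median gap over the 35 genes was 0.18 on the log2 scale, against 0.03 to 0.06 within the other 5 groups. All DU145DR libraries and the 22Rv1DR control library 4A were read on one pair of lanes and the other 22Rv1DR libraries on another pair, so 22Rv1DR values without 4A come from one pair of lanes.

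In 22Rv1DR, siPOM121 raised all tested hypoxia targets, while most glycolytic enzymes were not called. Averaged over both constructs, 20 of the 35 tested genes were called, 19 higher than in controls and 1 lower, against 35.5% of all symbols tested, 15.2% higher and 20.4% lower. Hypoxia targets gave 11 higher of 11, with a median log2 fold change of 0.50 and a range of 0.26 to 0.95. The genes and lists were chosen with earlier results of these data known, so these counts are a description and not independent support. Only 4 of 16 glycolytic enzymes were higher and none lower, with a median of 0.10, against -0.02 for all symbols. None of 3 transporters was called, 2 of 3 fructose-2,6-bisphosphate enzymes were higher and 1 lower, and both HIF alpha subunits were higher. All 4 siPOM121 libraries lay above both controls for 16 of the 35 genes (18.0% of all symbols tested) and below both for 4 (27.3%). Those below both were the enzymes PFKL, PFKM and ENO1, none of them called, and PFKFB2, which was called lower. A value per RNA sample cannot tell fewer cells of a kind from less RNA per cell.

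**Figure D1:**
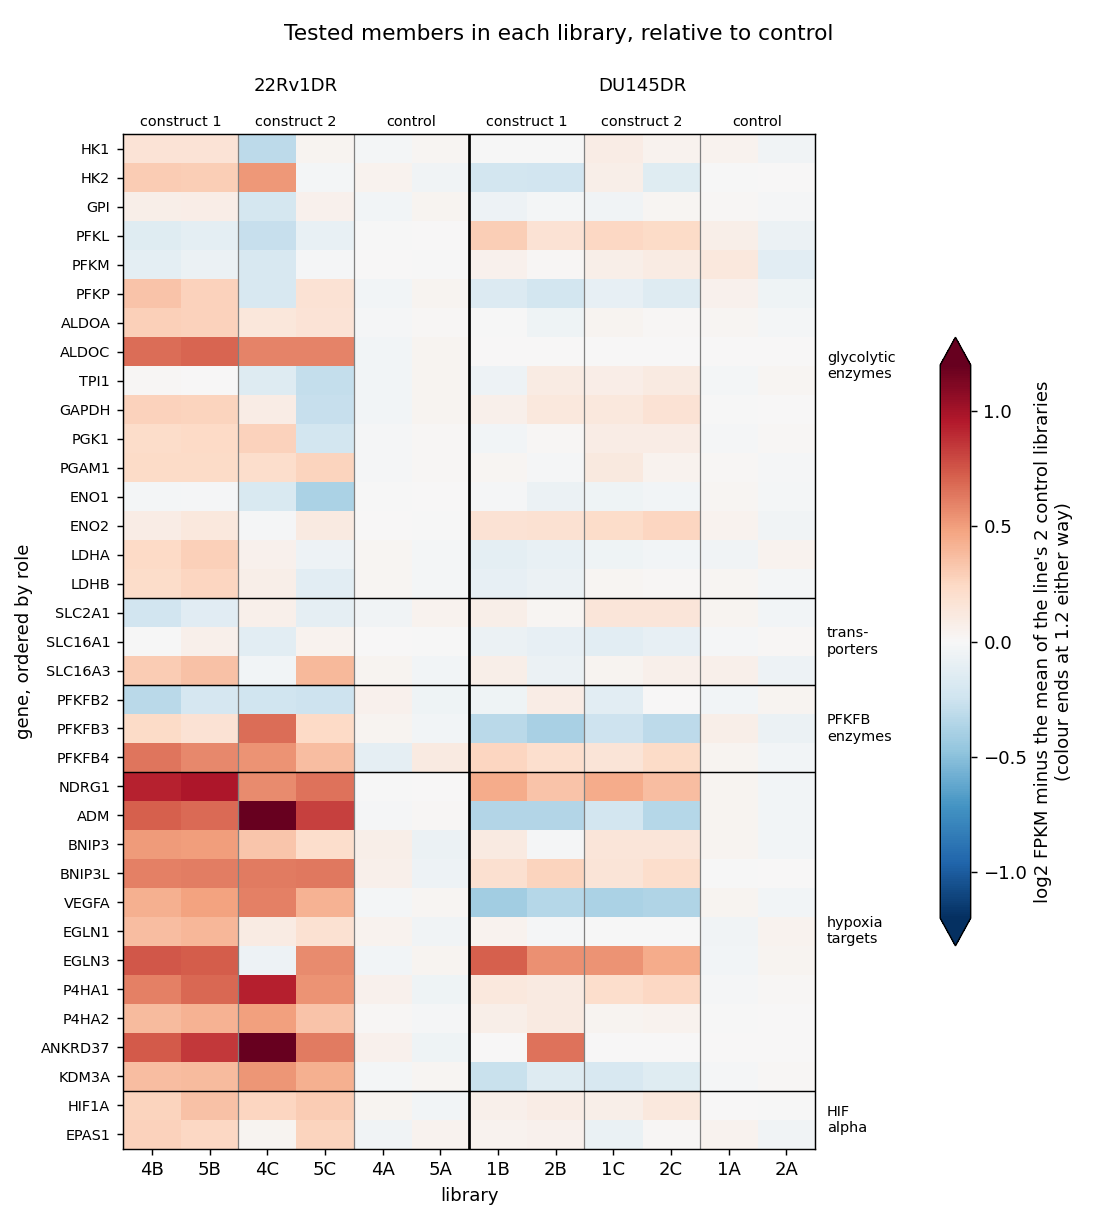
Colours show log2 FPKM minus the mean of the same line's 2 control libraries for the 35 tested genes (down the page, by role) in each of the 12 libraries (across, construct 1, construct 2 and control of 22Rv1DR, then of DU145DR). The hypoxia targets are red across the siPOM121 libraries of 22Rv1DR except EGLN3 in 4C, and VEGFA, ADM and KDM3A are blue in those of DU145DR.

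After ANKRD37, the largest changes among the hypoxia targets were in ADM and NDRG1. NDRG1, a stress- and hypoxia-induced gene tied to cell differentiation, had 48.6 and 50.01 FPKM with construct 1 and 37.9 and 40.1 with construct 2 in 22Rv1DR, against 25.6 and 25.6 in controls. Its log2 fold change was 0.78 ± 0.05 (adjusted p = 1.41e-05). ADM, which encodes the vasodilator peptide adrenomedullin, had 8.34 and 8.13 FPKM with construct 1 and 12.1 and 8.999 with construct 2, against 5.04 and 5.12 in controls (log2 fold change 0.87 ± 0.10, adjusted p = 0.000259). For both genes the siPOM121 and control libraries did not overlap.

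The mitophagy receptors rose as well. BNIP3L had 32.5 and 32.6 FPKM with construct 1 and 33.0 and 33.2 with construct 2, against 22.3 and 20.4 in 22Rv1DR controls (0.62 ± 0.05, adjusted p = 3.35e-05). BNIP3, its paralog on the outer mitochondrial membrane, had 77.7 and 77.3 FPKM with construct 1 and 68.9 and 63.1 with construct 2, against 57.3 and 52.0 in controls (0.39 ± 0.06, adjusted p = 0.000883). BNIP3L was nearly level across the 4 siPOM121 libraries, whereas BNIP3 was lower with construct 2 than with construct 1.

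VEGFA, the secreted growth factor for blood vessels, had 54.9 and 57.0 FPKM with construct 1 and 62.3 and 54.7 with construct 2, against 40.3 and 41.5 in 22Rv1DR controls (0.48 ± 0.06, adjusted p = 0.000281). KDM3A, a demethylase of histone H3 lysine 9, had 15.5 and 15.6 FPKM with construct 1 and 17.3 and 16.1 with construct 2, against 11.8 and 12.2 (0.43 ± 0.05, adjusted p = 0.000285). Neither gene had a siPOM121 library within the range of its controls.

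The hydroxylases were also higher. P4HA1 and P4HA2 encode the catalytic subunits of the collagen prolyl 4-hydroxylases. P4HA1 had 69.0 and 73.2 FPKM with construct 1 and 86.4 and 65.9 with construct 2, against 46.8 and 43.8 in 22Rv1DR controls (0.69 ± 0.09, adjusted p = 0.000523). P4HA2 had 11.2 and 11.4 FPKM with construct 1 and 12.1 and 10.9 with construct 2, against 8.68 and 8.50 (0.41 ± 0.05, adjusted p = 0.000284). Library 4C was the highest of the 6 for both. EGLN1, the main oxygen sensor of the HIF pathway, had 13.2 and 13.4 FPKM with construct 1 and 10.9 and 11.5 with construct 2, against 10.5 and 9.87 (0.26 ± 0.05, adjusted p = 0.00236). EGLN3, itself a HIF target, had 4.21 and 4.16 FPKM with construct 1 and 2.41 and 3.71 with construct 2, against 2.46 and 2.56 (0.50 ± 0.14, adjusted p = 0.0225). EGLN3 in library 4C was below both controls, and its call was lost when 4A, 5A, 4B or 5B was left out or when 22Rv1DR was fitted alone (highest adjusted p = 0.19).

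ANKRD37, an ankyrin-repeat gene strongly induced by hypoxia in many cell types, had 8.33 and 8.999 FPKM with construct 1 and 15.0 and 7.68 with construct 2, against 5.16 and 4.83 in 22Rv1DR controls (0.95 ± 0.25, adjusted p = 0.0167). Library 4C stood far above the other siPOM121 libraries, and the call was lost without 4A, without 5A, with the higher-numbered lanes only and when the line was fitted alone (highest adjusted p = 0.136). Over all alternatives run, 8 to 11 of the 11 hypoxia targets were higher in 22Rv1DR and none was lower. The count was 9 without 4A, 11 without 4C and 11 without 5C, with medians of 0.47, 0.60 and 0.53, and 8 with the line fitted alone.

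Promoter sequence was read for these genes because HIF binds DNA through a short core. The letters ACGTG and GCGTG were searched on both strands (also as CACGT and CACGC) in the 250 bases before each RefSeq gene start, build GRCh38.p14. Of the 37 genes, 31 had a promoter in the table, and SLC2A3, PFKFB2, NDRG1, SLC16A1, BNIP3L and VEGFA had none. At least 1 match was found for 26 of the 31 genes (83.9%), against 47.4% of 27305 genes in the table. Genes can have several windows, and the listed genes have more windows each, 58 for 31 genes against 35116 for 27305. Counted by window, 35 of 58 held a match (60.3%), against 43.2% of all windows. The windows of the listed genes were also richer in G and C, with a median of 68.4% against 58.0%. Among genes higher in 22Rv1DR with siPOM121 the share was 13 of 16 (81.2%), and among the other listed genes 13 of 15 (86.7%). Counted by window the order turned, with 18 of 22 (81.8%) for the genes that rose, against 17 of 36 (47.2%) for the other listed genes. Windows of 1 gene are not independent, and neither pair of shares was tested. The following windows belong to 5 genes that rose in 22Rv1DR and hold matches, and to PGAM1, which rose and holds none. Capitals mark the matched letters, each sequence runs 5′ to 3′ towards the gene, and CACGTG counts as a match on each strand and is also the E-box read by MYC and other factors. ANKRD37 lies at chr4:185396591-185396840 on the plus strand, BNIP3 at chr10:131981924-131982173 on the minus strand, ALDOC at chr17:28576896-28577145 on the minus strand, P4HA1 at chr10:73096867-73097116 on the minus strand, PFKFB4 at chr3:48556804-48557053 on the minus strand and PGAM1 at chr10:97427568-97427817 on the plus strand.
ANKRD37: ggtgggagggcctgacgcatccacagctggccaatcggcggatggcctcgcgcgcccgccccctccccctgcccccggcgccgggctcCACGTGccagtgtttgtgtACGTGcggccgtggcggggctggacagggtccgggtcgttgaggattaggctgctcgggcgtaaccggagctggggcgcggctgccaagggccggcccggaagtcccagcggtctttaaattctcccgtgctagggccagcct
BNIP3: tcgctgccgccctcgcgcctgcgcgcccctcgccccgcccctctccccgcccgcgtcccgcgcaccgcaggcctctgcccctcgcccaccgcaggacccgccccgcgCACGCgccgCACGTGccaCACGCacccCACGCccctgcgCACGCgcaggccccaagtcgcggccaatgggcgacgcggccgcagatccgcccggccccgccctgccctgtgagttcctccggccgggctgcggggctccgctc
ALDOC: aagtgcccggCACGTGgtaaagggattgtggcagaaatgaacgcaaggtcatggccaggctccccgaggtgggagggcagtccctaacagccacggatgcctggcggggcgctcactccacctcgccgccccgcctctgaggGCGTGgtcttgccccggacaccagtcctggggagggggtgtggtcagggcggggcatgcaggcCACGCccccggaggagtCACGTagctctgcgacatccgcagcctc
P4HA1: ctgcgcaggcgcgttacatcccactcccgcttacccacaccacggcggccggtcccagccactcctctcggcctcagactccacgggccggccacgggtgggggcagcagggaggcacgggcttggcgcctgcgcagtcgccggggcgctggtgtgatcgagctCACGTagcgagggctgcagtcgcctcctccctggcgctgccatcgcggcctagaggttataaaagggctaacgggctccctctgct
PFKFB4: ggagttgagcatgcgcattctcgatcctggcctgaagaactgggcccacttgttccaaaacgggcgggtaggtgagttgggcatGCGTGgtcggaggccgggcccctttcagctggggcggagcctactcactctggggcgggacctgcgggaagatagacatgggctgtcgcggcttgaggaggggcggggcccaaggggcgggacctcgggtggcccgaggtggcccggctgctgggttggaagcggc
PGAM1: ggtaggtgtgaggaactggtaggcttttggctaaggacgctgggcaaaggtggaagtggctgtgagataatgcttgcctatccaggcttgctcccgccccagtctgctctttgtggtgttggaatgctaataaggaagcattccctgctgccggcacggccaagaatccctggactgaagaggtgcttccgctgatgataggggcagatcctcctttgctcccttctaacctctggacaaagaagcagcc
ANKRD37, BNIP3 and ALDOC each hold 1 CACGTG, and BNIP3 had the most match positions of these 6 windows, 6. A match is a run of letters and does not show that a factor binds there.

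Among glycolytic enzymes of 22Rv1DR, the called rises were in both aldolases, PGAM1 and LDHA. ALDOC, the brain-type aldolase, had 82.5 and 84.1 FPKM with construct 1 and 78.2 and 78.4 with construct 2, against 50.5 and 53.1 in controls (0.64 ± 0.04, adjusted p = 1.62e-05). All DU145DR libraries are listed at 0 for ALDOC and add no spread to the shared model, so this standard error and p may be too small. The ALDOC call held with 22Rv1DR fitted alone. ALDOA, the main aldolase, had 1029 and 1018 FPKM with construct 1 and 924 and 943 with construct 2, against 835 and 848 (0.22 ± 0.04, adjusted p = 0.0021). ALDOC thus had the largest rise among the enzymes, and its share of aldolase FPKM was 7.43% to 7.81% with siPOM121, against 5.70% to 5.89% in controls. The ALDOA call was lost under quantile normalization (adjusted p = 0.151).

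PGAM1, which moves the phosphate of 3-phosphoglycerate, had 189 and 189 FPKM with construct 1 and 186 and 193 with construct 2, against 159 and 163 in 22Rv1DR controls (0.24 ± 0.04, adjusted p = 0.00161). The PGAM1 value is uncertain because PGAM4, a near-identical copy, is also listed, and how shared reads were counted is not given in the sources used here. LDHA, the lactate dehydrogenase subunit induced by HIF, had 295 and 305 FPKM with construct 1 and 258 and 239 with construct 2, against 254 and 245 (0.13 ± 0.04, adjusted p = 0.0466). LDHA lay above both controls with construct 1 and around them with construct 2, and the call on the mean held in 7 of 20 alternatives.

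The other enzymes were not called on the mean of both constructs. HK1, the hexokinase that carries most hexokinase FPKM here, had 113 and 112 FPKM with construct 1 and 80.9 and 103 with construct 2, against 98.5 and 102 in 22Rv1DR controls (0.01 ± 0.08, adjusted p = 0.971). HK2, the hexokinase typically raised in tumours, had 15.2 and 15.2 FPKM with construct 1 and 17.7 and 12.1 with construct 2, against 12.7 and 11.98 (0.28 ± 0.13, adjusted p = 0.122). The construct 2 libraries of HK1 lay on either side of its controls, and HK2 was above both controls in 4C and between them in 5C. GAPDH had 3958 and 3921 FPKM with construct 1 and 3477 and 2699 with construct 2, against 3185 and 3344 (0.09 ± 0.08, adjusted p = 0.46), and the sign of its mean change turned under quantile normalization (-0.18). LDHB, the heart-type lactate dehydrogenase subunit, had 1057 and 1089 FPKM with construct 1 and 956 and 837 with construct 2, against 925 and 897 (0.11 ± 0.05, adjusted p = 0.154). GPI, PFKL, PFKM, PFKP, TPI1, PGK1, ENO1 and ENO2 had mean log2 fold changes between -0.15 and 0.15. Without 4C, 7 enzymes were higher and 2 lower, and without 5C, 8 were higher and 2 lower.

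The fructose-2,6-bisphosphate enzymes, which make and remove the activator of phosphofructokinase, did not move together in 22Rv1DR. PFKFB4 had 9.43 and 8.95 FPKM with construct 1 and 8.75 and 7.76 with construct 2, against 5.59 and 6.49 in controls (0.53 ± 0.07, adjusted p = 0.000757). PFKFB3 had 21.9 and 21.0 FPKM with construct 1 and 29.8 and 22.0 with construct 2, against 19.1 and 18.3 (0.33 ± 0.10, adjusted p = 0.0323). PFKFB4 was higher in every alternative run, whereas the PFKFB3 call held in 10 of 20. PFKFB2, the heart isoform, fell to 4.25 and 4.65 FPKM with construct 1 and 4.53 and 4.51 with construct 2, against 5.54 and 5.14 in controls (-0.25 ± 0.07, adjusted p = 0.0189), and its call held in 15 of 19 alternatives.

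Transporters were not called in 22Rv1DR. SLC2A1, the glucose transporter GLUT1 and a HIF target, had 14.0 and 15.0 FPKM with construct 1 and 17.2 and 15.3 with construct 2, against 16.1 and 16.9 in controls (-0.10 ± 0.05, adjusted p = 0.172). SLC16A3, the lactate exporter MCT4, had a log2 fold change of 0.25 ± 0.10 (adjusted p = 0.0757), and SLC16A1, the transporter MCT1, one of -0.01 ± 0.05 (adjusted p = 0.979). SLC2A1 with siPOM121 overlapped its controls.

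HIF1A had 22.1 and 23.3 FPKM with construct 1 and 22.0 and 22.6 with construct 2, against 18.8 and 17.9 in 22Rv1DR controls (0.30 ± 0.04, adjusted p = 0.000767). EPAS1, which encodes HIF-2 alpha, had 5.09 and 4.98 FPKM with construct 1 and 4.30 and 5.06 with construct 2, against 4.07 and 4.33 (0.21 ± 0.07, adjusted p = 0.0371). HIF1A was higher in all 20 alternatives, and EPAS1 in 9 of 20, with library 4C between its controls.

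In DU145DR, hypoxia targets went both ways with siPOM121. The number called among all 35 tested genes was near the background, but the calls were uneven by role. On the mean of both constructs 5 of 35 genes were higher and 4 lower than in controls, against 23.9% of all symbols tested, 14.5% higher and 9.37% lower. Of 11 hypoxia targets 6 were called, 3 higher and 3 lower (median 0.10). Of 16 glycolytic enzymes 2 were called, both higher (median 0.02), and 1 fructose-2,6-bisphosphate enzyme of 3 was lower. Whether the share of hypoxia targets called exceeded that of all symbols was not tested. No transporter and neither HIF alpha subunit was called. All 4 siPOM121 libraries lay above both controls for 10 genes (27.2% of all symbols tested) and below both for 6 (22.0%). The count of 9 fell to 2 without library 2A and to 4 without 1A, 1B or 1C, and reached 14 without 4C or 5C, whose spread enters the same model.

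NDRG1, BNIP3L and EGLN3 were higher with siPOM121 in DU145DR. NDRG1 had 60.2 and 55.9 FPKM with construct 1 and 60.1 and 57.0 with construct 2, against 44.98 and 43.2 in controls (0.40 ± 0.05, adjusted p = 0.00048). BNIP3L had 32.0 and 33.8 FPKM with construct 1 and 31.3 and 32.4 with construct 2, against 27.9 and 28.1 (0.21 ± 0.05, adjusted p = 0.00992). EGLN3 had 3.41 and 3.02 FPKM with construct 1 and 3.02 and 2.82 with construct 2, against 2.02 and 2.12 (0.56 ± 0.14, adjusted p = 0.0184). All siPOM121 libraries exceeded both controls for these 3 genes. Only NDRG1 kept its call in every alternative: BNIP3L lost it without 1A or 2A, and EGLN3 in 5 of 20. With construct 2 alone, EGLN3 was not called (0.50 ± 0.16, adjusted p = 0.0677).

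VEGFA, ADM and KDM3A were lower in DU145DR. VEGFA fell to 18.6 and 19.6 FPKM with construct 1 and 19.1 and 19.3 with construct 2, against 25.4 and 24.3 in controls (-0.38 ± 0.06, adjusted p = 0.00154). ADM had 31.2 and 31.4 FPKM with construct 1 and 34.3 and 31.5 with construct 2, against 40.8 and 39.2 (-0.32 ± 0.10, adjusted p = 0.0426). KDM3A had 13.2 and 14.3 FPKM with construct 1 and 13.9 and 14.4 with construct 2, against 15.8 and 16.04 (-0.19 ± 0.05, adjusted p = 0.0209). No siPOM121 library reached its controls for any of the 3. The VEGFA call held in all 21 alternatives, that of KDM3A in 15 and that of ADM in 8. With construct 2 alone, KDM3A was not called (-0.17 ± 0.06, adjusted p = 0.0722).

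**Figure D2:**
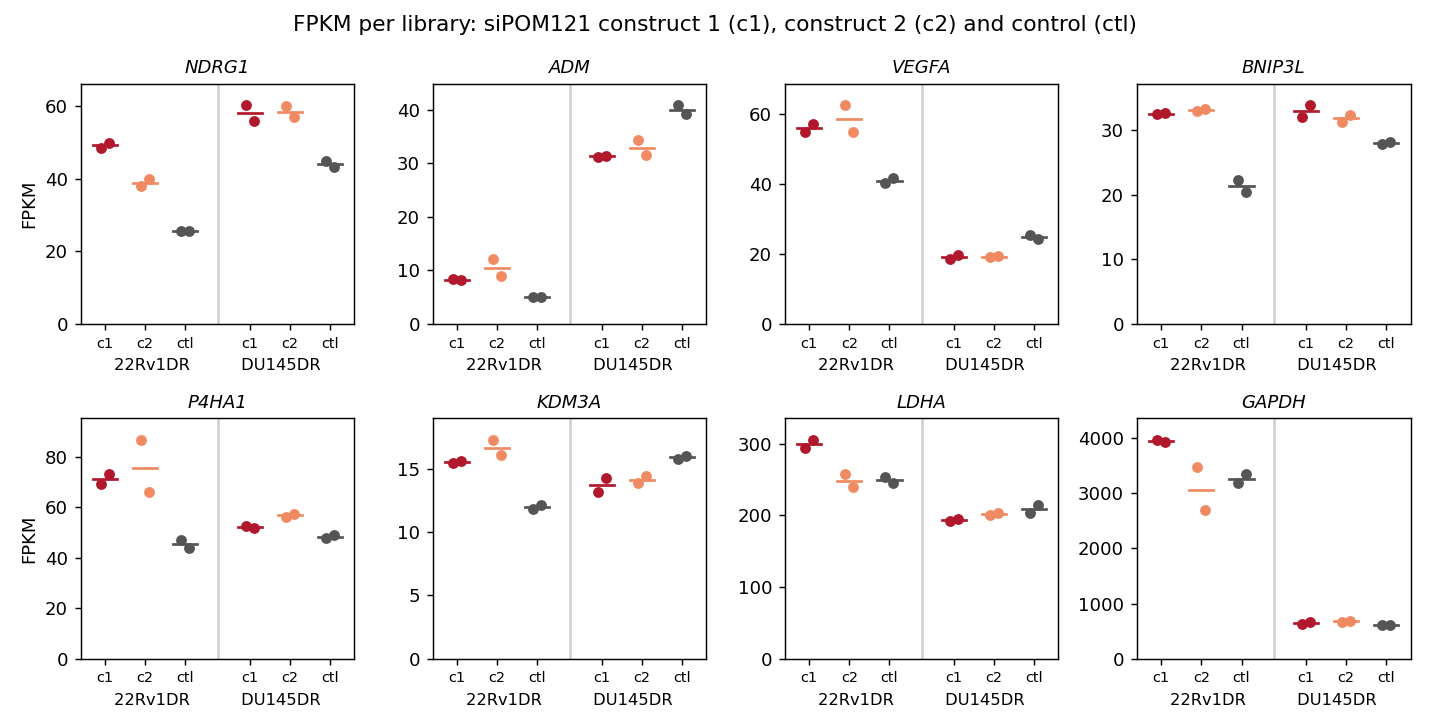
Points are FPKM in single libraries and bars the group means on the log2 scale, for construct 1, construct 2 and control of 22Rv1DR (left of each panel) and DU145DR (right). VEGFA, ADM and KDM3A lie above the controls with siPOM121 in 22Rv1DR and below them in DU145DR, whereas NDRG1 and BNIP3L lie above them in both.

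Of the metabolic genes in DU145DR, ENO2 and PFKL were higher and PFKFB3 lower. ENO2, the neuronal enolase, had 20.8 and 21.0 FPKM with construct 1 and 21.5 and 22.0 with construct 2, against 18.98 and 17.9 in controls (0.21 ± 0.04, adjusted p = 0.00813). PFKL, the liver-type phosphofructokinase, had 51.5 and 47.3 FPKM with construct 1 and 49.8 and 49.1 with construct 2, against 43.9 and 40.1 (0.23 ± 0.06, adjusted p = 0.0214). PFKFB3 had 20.6 and 19.7 FPKM with construct 1 and 21.8 and 20.8 with construct 2, against 27.1 and 24.6 (-0.32 ± 0.10, adjusted p = 0.0494). Groups did not overlap for any of these 3 genes. The ENO2 call was lost without 2A, the PFKL call in 4 of 21 alternatives and the PFKFB3 call in 15 of 21.

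The major glycolytic transcripts of DU145DR were not called. GAPDH had 635 and 665 FPKM with construct 1 and 668 and 689.9 with construct 2, against 609.7 and 612 in controls (0.12 ± 0.08, adjusted p = 0.35). LDHA had 192 and 195 FPKM with construct 1 and 201 and 204 with construct 2, against 203 and 214 (-0.07 ± 0.04, adjusted p = 0.268). LDHB had 197 and 201 FPKM with construct 1 and 215 and 213 with construct 2, against 214 and 208 (-0.03 ± 0.05, adjusted p = 0.76). GAPDH was above its controls in all 4 libraries and was called in 3 of 21 alternatives, and LDHA and LDHB overlapped their controls.

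HK1 had 81.4 and 81.1 FPKM with construct 1 and 86.6 and 84.2 with construct 2 in DU145DR, against 84.1 and 79.1 in controls (0.03 ± 0.08, adjusted p = 0.906). HK2 had 5.09 and 5.05 FPKM with construct 1 and 6.22 and 5.34 with construct 2, against 5.92 and 5.92 (-0.13 ± 0.13, adjusted p = 0.528). SLC2A1 had 37.9 and 36.8 FPKM with construct 1 and 40.0 and 40.0 with construct 2, against 36.9 and 35.4 (0.10 ± 0.05, adjusted p = 0.241). All 3 overlapped their controls. HIF1A had 49.8 and 50.8 FPKM with construct 1 and 50.2 and 52.2 with construct 2, against 47.7 and 47.6 (0.09 ± 0.04, adjusted p = 0.15). EPAS1 had 55.7 and 55.7 FPKM with construct 1 and 50.9 and 54.4 with construct 2, against 55.6 and 52.3 (0.01 ± 0.07, adjusted p = 1). ALDOC was listed at 0 in all DU145DR samples and ANKRD37 in all but 1 lane of library 2B, so their DU145DR changes are set by the floor.

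The constructs were compared with control and with each other. In DU145DR, 7 genes were called with construct 1, 5 higher and 2 lower than control (19.8% of all symbols tested were called), and 5 with construct 2, 4 higher and 1 lower (16.6%). No gene of the 35 was called between construct 2 and construct 1 by limma, where 0.0220% of all symbols were, and 0 had an unadjusted p under 0.05. In 22Rv1DR, 20 genes were called with construct 1, 19 higher and 1 lower than control (27.1% of all symbols), and 18 with construct 2, 15 higher and 3 lower (35.1%). Of all 13622 symbols tested, 1631 were higher and 2066 lower with construct 1 in 22Rv1DR (median 0.00). With construct 2, 1981 were higher and 2802 lower (median -0.03). Hypoxia targets gave 10 higher of 11 with construct 1 (median 0.61) and 9 with construct 2 (median 0.51), and none lower with either. Glycolytic enzymes gave 6 higher and 0 lower of 16 with construct 1 (median 0.23), and 3 higher and 2 lower with construct 2 (median -0.02). The construct 1 rises were in PFKP, ALDOA, ALDOC, PGAM1, LDHA and LDHB, and the construct 2 falls in TPI1 and ENO1. Of these, PFKP (adjusted p = 0.0473) lost its construct 1 call in 14 of 21 alternatives and LDHB in 6 of 21, and TPI1 lost its construct 2 call in 6 of 20 and ENO1 in 2 of 20. With both construct 2 libraries left out of the model, construct 1 gave 11 enzymes and 11 hypoxia targets higher, and with 22Rv1DR fitted alone 3 and 6. The share of all symbols called in either setting is not given here, so these counts are not read as particular to the 2 roles. Over all tested symbols the median gap between the libraries left out was 0.152, against 0.043 to 0.055 in the other groups.

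Set against construct 1, construct 2 of 22Rv1DR had 8 genes lower and 0 higher, where 11.6% of all symbols tested were called, 4.28% lower and 7.30% higher. They were the 5 enzymes TPI1, GAPDH, ENO1, LDHA and LDHB and the 3 hypoxia targets NDRG1, BNIP3 and EGLN1. NDRG1 differed by -0.34 ± 0.05 (adjusted p = 0.00654), and its construct 2 libraries still lay above both controls. LDHA differed by -0.27 ± 0.05 (adjusted p = 0.0134). ENO1, the ubiquitous enolase, had 544 and 474 FPKM with construct 2, against 609 and 611 with construct 1, and 617 and 619.5 in controls. TPI1, triose phosphate isomerase, had 575 and 524 FPKM with construct 2, against 645 and 638 with construct 1, and 625 and 652 in controls. For both enzymes construct 1 lay near control and construct 2 below it. PFKP, the platelet phosphofructokinase, had 5.44 and 7.03 FPKM with construct 2, against 7.92 and 7.57 with construct 1, and 6.08 and 6.39 in controls.

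These construct differences rest on few libraries. The count of 8 was 0 without 4B, 0 without 5B and 0 with 22Rv1DR fitted alone, 5 without 4A or 5A, 10 without 4C, and 21 (6 higher, 15 lower) without 5C. Ribosomal protein transcripts made up 17.1% to 17.3% of all FPKM in 4C and 11.1% to 11.4% in 5C, against 13.7% to 15.8% in the other 22Rv1DR libraries. The part of that difference in these results was not tested.

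**Figure D3:**
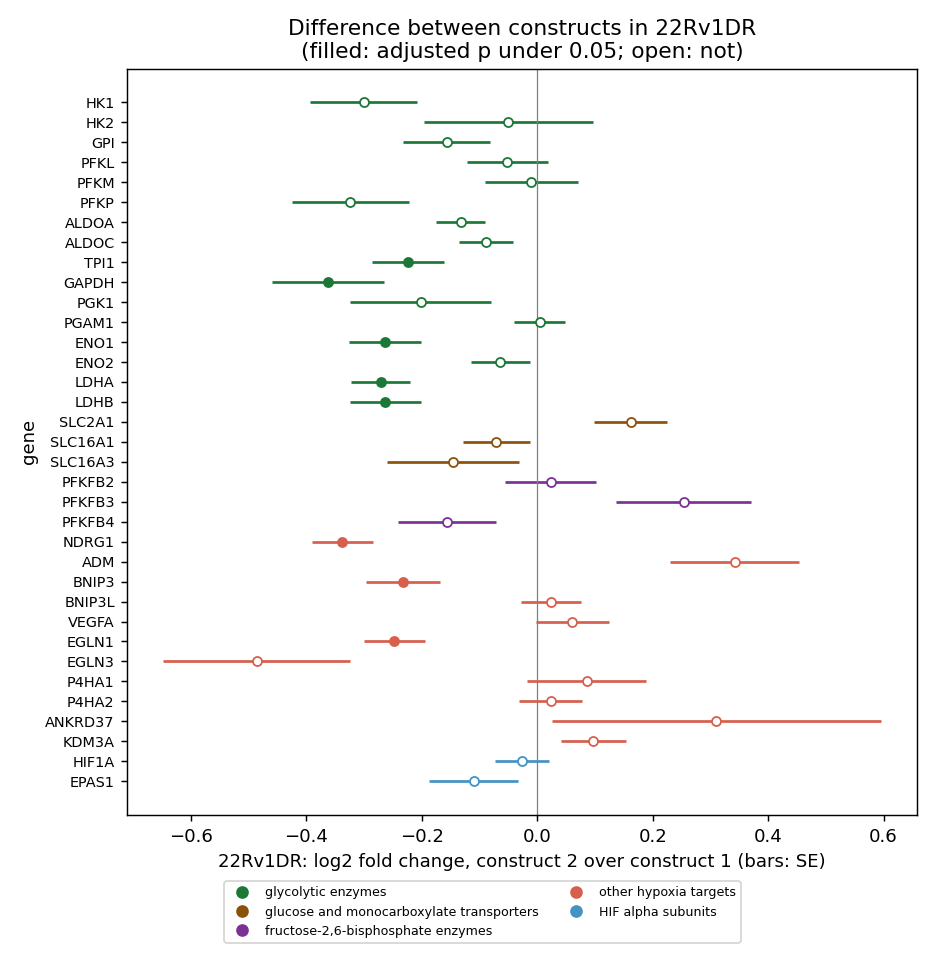
Points are log2 fold changes of construct 2 over construct 1 in 22Rv1DR with bars of 1 standard error, for the 35 tested genes coloured by role, filled where the adjusted p was under 0.05. The 8 filled points, 5 enzymes and 3 hypoxia targets, all lie below 0.

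The change with siPOM121 differed between the lines for 16 of the 35 genes. The 22Rv1DR change was the more positive for 15 and the less positive for 1, against 8.93% and 15.9% of all symbols tested, or 24.8% in all. By role, 9 of 11 hypoxia targets, 4 of 16 enzymes, PFKFB3 and HIF1A were more positive, and PFKL was less so. One of the 4 enzymes is ALDOC, which passed the filter only through 22Rv1DR and is at the floor in DU145DR, so its line difference restates its 22Rv1DR change. ADM differed most, by 1.18 ± 0.14 (adjusted p = 0.000747), followed by VEGFA with 0.86 ± 0.08 (adjusted p = 0.000319). PFKFB3 differed by 0.64 ± 0.14 (adjusted p = 0.0121), and KDM3A by 0.62 ± 0.07 (adjusted p = 0.000638). On the mean of both constructs, these 4 genes were called higher in 22Rv1DR and lower in DU145DR. The falls of ADM and PFKFB3 in DU145DR were called with neither construct alone, and on the mean their calls were lost in most alternatives. The KDM3A fall there was called with construct 1 but not with construct 2. The PFKFB3 rise in 22Rv1DR was also called in only 10 of 20.

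NDRG1 and BNIP3L were higher in both lines and rose more in 22Rv1DR, by 0.38 ± 0.06 (adjusted p = 0.00433) and 0.41 ± 0.06 (adjusted p = 0.00256). On the mean of both constructs EGLN3 was called higher in both lines, with a line difference of -0.07 ± 0.20 (adjusted p = 0.831). With construct 2 alone it was called in neither line. PFKL, higher in DU145DR, had a 22Rv1DR change of -0.15 ± 0.06 (adjusted p = 0.0761), and the difference was -0.39 ± 0.09 (adjusted p = 0.0116). POM121 itself fell by 2.37 on the log2 scale in 22Rv1DR and by 0.71 in DU145DR, and the part of this unequal knockdown in the line differences was not tested. The count of 16 was 8 without 5A, 9 without 1A, 9 without 2A and 25 without 4C, and 13 without 4A.

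**Figure D4:**
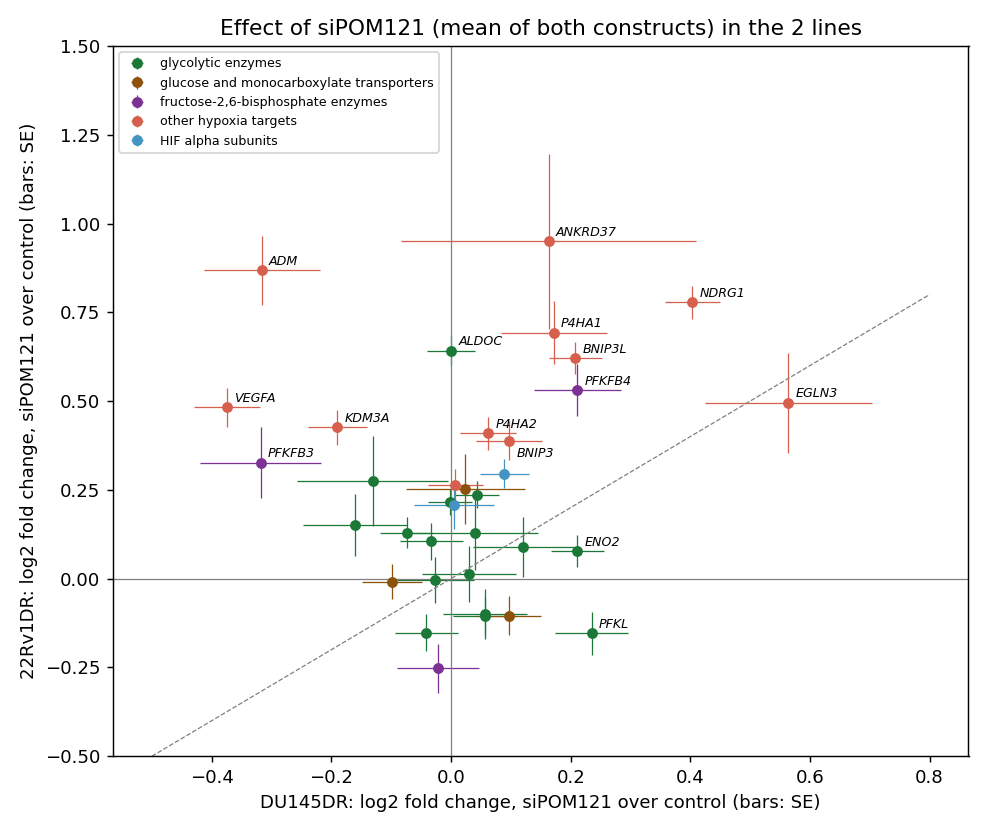
Each point is 1 of the 35 tested genes, with its log2 fold change of siPOM121 (mean of both constructs) over control in 22Rv1DR on the vertical axis and in DU145DR on the horizontal axis, bars of 1 standard error, colours by role and a dashed line of equal change. VEGFA, ADM, KDM3A and PFKFB3 lie in the upper left, higher in 22Rv1DR and lower in DU145DR.

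Without siPOM121 the 2 lines carried different sets of glycolytic isoforms. Between controls 33 of 35 genes differed, 16 higher and 17 lower in 22Rv1DR, in a comparison where 83.0% of all symbols were called, 40.3% higher and 42.7% lower, so the number itself is near the background. GAPDH stood at 3264 FPKM in 22Rv1DR controls, against 611 in DU145DR controls (group means on the log2 scale). TPI1 stood at 638 FPKM in 22Rv1DR controls, against 111 in DU145DR controls, and LDHB at 910.5 against 211. LDHA made up 21.5% of lactate dehydrogenase FPKM in 22Rv1DR controls and 48.6% to 50.7% in DU145DR controls. PFKP made up 3.11% to 3.26% of phosphofructokinase FPKM in 22Rv1DR controls and 77.6% to 78.6% in DU145DR controls, with levels of 6.24 and 338 FPKM. ALDOC had 51.8 FPKM in 22Rv1DR controls and was listed at 0 in DU145DR.

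Transporters and HIF alpha subunits ran the other way. SLC2A1, SLC16A1 and SLC16A3 were all lower in 22Rv1DR controls, with log2 differences of -1.13 ± 0.06, -0.33 ± 0.06 and -1.39 ± 0.12. HIF1A stood at 18.3 FPKM in 22Rv1DR controls, against 47.7 in DU145DR controls, and EPAS1 at 4.20 against 53.9. Of the hypoxia targets VEGFA and ANKRD37 were higher and 7 lower in 22Rv1DR controls. ANKRD37, like ALDOC among the enzymes, passed the filter only through the 22Rv1DR libraries, so its difference from DU145DR follows from the filter and is not support. ADM differed by -2.98 ± 0.11 and VEGFA by 0.72 ± 0.06, while EGLN3 and P4HA1 were not called. For 12 of 16 enzymes 22Rv1DR controls were higher, but the signs for GPI and LDHA turned under quantile normalization (-0.04 and -0.07).

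**Figure D5:**
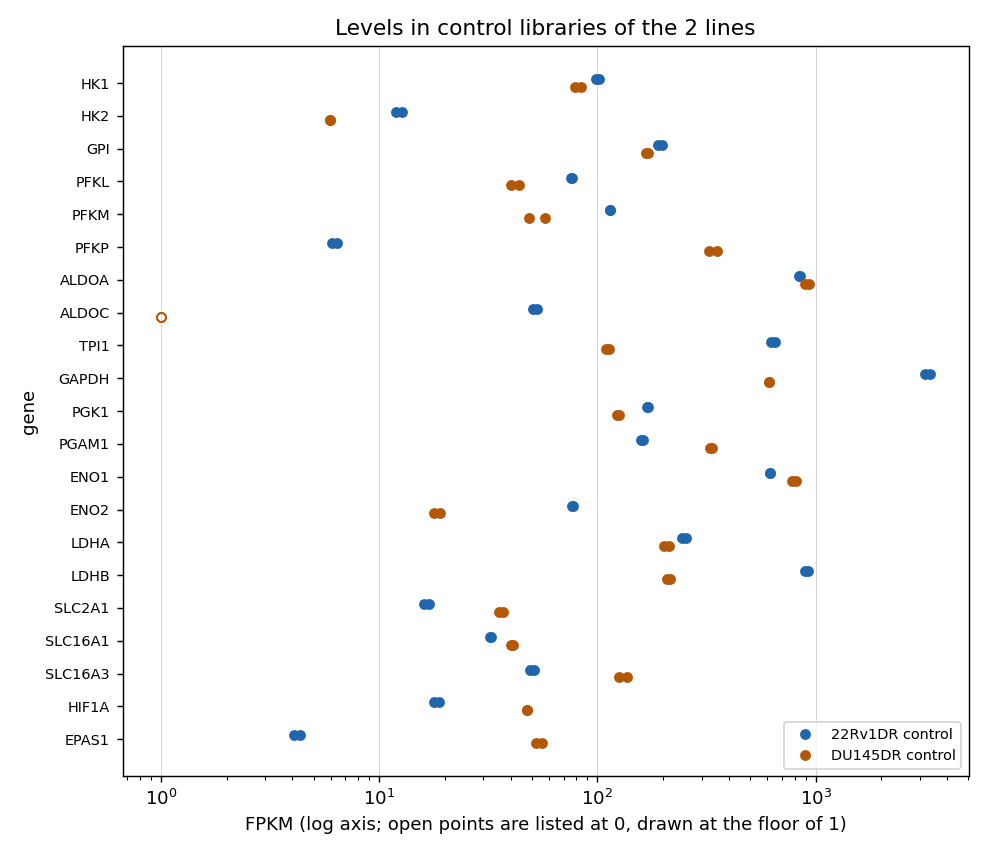
Points are FPKM on a log axis in the 2 control libraries of 22Rv1DR and of DU145DR for enzymes, transporters and HIF alpha subunits. PFKP and EPAS1 lie far higher in DU145DR controls, and GAPDH, TPI1 and LDHB in 22Rv1DR controls, while ALDOC is listed at 0 in DU145DR.

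Other genes of the same pathways were counted from 2 further lists. Of 20 other glycolysis genes tested, 3 were higher and 2 lower with siPOM121 in 22Rv1DR, and 3 higher and 1 lower in DU145DR. Among them, SLC2A10 and SLC2A4 passed the filter only through siPOM121 libraries of DU145DR, and HKDC1 only through DU145DR controls. Any DU145DR call of these genes follows from the filter and is not support. Of all symbols tested, 15.2% were higher and 20.4% lower in 22Rv1DR, and 14.5% and 9.37% in DU145DR, so the shares higher are near the background. The 22Rv1DR counts were 6 and 2 without 4C, 3 and 4 without 5C, and 3 and 0 without 5A, and those of DU145DR were 6 and 2 without 4C or 5C, and 2 and 0 without 2A or 1B. Of 38 other HIF pathway genes, 17 were higher and 2 lower in 22Rv1DR (median 0.14), and 14 higher and 6 lower in DU145DR (median 0.11). The 22Rv1DR counts for the HIF list were 15 and 1 without 4A, 22 and 4 without 4C, 18 and 6 without 5C, and 10 and 0 with the line fitted alone. In DU145DR they were 5 and 3 without 1A, and 5 and 3 without 2A.

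Those with the smallest p in 22Rv1DR were DDIT4, CITED2, PLOD2 and ANGPTL4. DDIT4, a stress-induced inhibitor of mTORC1, had 187 and 186 FPKM with construct 1 and 211 and 183 with construct 2, against 124 and 125 in controls (0.62 ± 0.06, adjusted p = 9.2e-05). CITED2, a HIF target that competes with HIF for its coactivator, rose in 22Rv1DR (0.50 ± 0.05, adjusted p = 0.000165) and in DU145DR (0.39 ± 0.05, adjusted p = 0.000989). PLOD2, a collagen lysyl hydroxylase, rose in both lines too, by 0.55 ± 0.06 in 22Rv1DR and 0.27 ± 0.06 in DU145DR. ANGPTL4, a secreted inhibitor of lipoprotein lipase, had 23.1 and 22.9 FPKM with construct 1 and 23.7 and 22.4 with construct 2, against 13.5 and 12.7 in 22Rv1DR controls (0.82 ± 0.09, adjusted p = 0.000257). In DU145DR it had 3.93 and 3.48 FPKM with construct 1 and 4.53 and 3.82 with construct 2, against 7.49 and 6.28 in controls (-0.81 ± 0.09, adjusted p = 0.000456). ANGPTL4 thus moved in opposite directions, with a line difference of 1.62 ± 0.13 (adjusted p = 0.000174).

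HMOX1, heme oxygenase, was likewise higher with siPOM121 in 22Rv1DR (0.34 ± 0.05) and lower in DU145DR (-0.40 ± 0.05), with a line difference of 0.74 ± 0.07 (adjusted p = 0.000338). SLC2A12, a glucose transporter, had 1.96 and 1.96 FPKM with construct 1 and 2.05 and 2.02 with construct 2, against 1.14 and 1.17 in DU145DR controls, all near the floor. ARNT, the partner of the HIF alpha subunits, was lower in 22Rv1DR on the mean of both constructs (-0.22 ± 0.05, adjusted p = 0.00613). The fall lay mainly with construct 1, at 14.7 and 15.3 FPKM. Construct 2 gave 18.8 and 17.1, against 19.3 and 18.8 in 22Rv1DR controls. In DU145DR ARNT was higher (0.17 ± 0.05, adjusted p = 0.0256). Between constructs in 22Rv1DR, PKM, which makes pyruvate, was lower with construct 2 than with construct 1 (-0.24 ± 0.04, adjusted p = 0.00729). PDK1, the kinase that holds back pyruvate dehydrogenase, was higher with construct 2 (0.38 ± 0.09, adjusted p = 0.0339), as was ARNT (0.26 ± 0.05, adjusted p = 0.0182). Without 4B or 5B none of these 3 calls remained, and with 22Rv1DR fitted alone neither PDK1 nor ARNT was called.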

How the data were processed

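The submitters' processing notes name TopHat and Cufflinks, and the builds hg19 (human, as the cells) and mm10, with no version. The values deposited by the authors are log2 FPKM per gene symbol and sample: 100.0% of values above 0 become numbers of 6 digits as powers of 2 (tolerance 0.02), against 3.97% with base e. The smallest value above 0 is 1.00 FPKM, so lower values were listed at 0, as 52.8% of all values are. The libraries do not keep strand. Read counts are not in the files, so depth is unknown and no counting interval is given.

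Lanes were averaged on the log2 scale, a repeated symbol was represented by its line of highest mean, and symbols with both lanes above the floor in at least 2 of 12 libraries were tested. FPKM values are powers of 2 of these means. Limma 3.58.1 (R 4.3.3, trend and robust options) was fitted once over 6 groups with 10 contrasts, 2-sided. The plan had assumed plain FPKM with a pseudocount, and the deposited log2 values were used as they are. The method was tested on simulated data. The members and lists were chosen with earlier results of these data known. All 37 members are accounted for, with values for those called against control and 10 fixed members, and up to 4 genes of the further lists per contrast by smallest p. Promoter coordinates belong to the RefSeq table, not to the files' build. Some prostate markers of the cell check are not reported here.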

Additional observations from a re-analysis of the deposited data

Results flagged for a closer look

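For 16 of the 35 tested genes the change with siPOM121 differed between the lines in a test of the difference itself (22Rv1DR change minus DU145DR change, limma, adjusted over all symbols). Hypoxia targets made up 9 of them. ADM differed by 1.18 (adjusted p = 0.000747), VEGFA by 0.86 (0.000319), KDM3A by 0.62 (0.000638), P4HA1 by 0.52 (0.0174), BNIP3L by 0.41 (0.00256), NDRG1 by 0.38 (0.00433), P4HA2 by 0.35 (0.00637), BNIP3 by 0.29 (0.0253) and EGLN1 by 0.26 (0.0201). Among enzymes, ALDOC differed by 0.64 (0.000319), ALDOA by 0.22 (0.0162), LDHA by 0.20 (0.0414), PGAM1 by 0.19 (0.0288) and PFKL by -0.39 (0.0116). PFKFB3 differed by 0.64 (0.0121) and HIF1A by 0.21 (0.0301). ALDOC is listed at 0 in DU145DR, so its difference is the 22Rv1DR change alone. The calls for ALDOC, NDRG1, ADM, BNIP3L, VEGFA, P4HA2 and KDM3A held in all 19 alternatives run, and each of the other 9 was lost in at least 1.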

How the results depend on the processing

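Counts of called genes without 1 library ranged from 15 to 29 for construct 1, 11 to 24 for construct 2 and 14 to 27 for their mean in 22Rv1DR, from 2 to 13, 2 to 14 and 2 to 14 in DU145DR, from 0 to 21 between constructs in 22Rv1DR and 0 to 0 in DU145DR, from 8 to 25 for the line difference and from 29 to 34 between controls. A lone library was assumed to vary like the other groups. Counts from alternatives are given throughout without the share of all symbols called in the same setting. Their moves are therefore not read as particular to the listed genes. With 22Rv1DR fitted alone, the counts were 10 for construct 1, 10 for construct 2, 13 for their mean and 0 between constructs. With the higher-numbered lanes only, DU145DR gave 4 for construct 1 and 3 for construct 2. With the lower-numbered lanes only, DU145DR construct 2 gave 3 and the 22Rv1DR construct difference 3. That difference gave 5 with no filter, 5 with 1 FPKM added and 4 under quantile normalization. Without both construct 2 libraries of 22Rv1DR, an alternative chosen after seeing the data, DU145DR gave 13 for construct 1, 14 for construct 2 and 14 for their mean. Signs turned for HK1 in DU145DR (without 1 library -0.014 to 0.074, negative without 2A) and in 22Rv1DR (-0.073 to 0.100, negative without 4A, HK1 at -0.01, and 5C), for EPAS1 in DU145DR (-0.039 to 0.049, negative without 2A and 2C, at -0.019) and for GAPDH in 22Rv1DR (-0.001 without 4C to 0.181, and -0.185 under quantile normalization). Between controls GPI and LDHA turned under quantile normalization (-0.043 and -0.066). None of these turned values was called. The cause of these moves was not tested. Among all symbols called, 66.1% were higher for DU145DR construct 2, against 54.3% under quantile normalization, and for the line difference 36% against 49.2%.

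Same-numbered libraries correlated at -0.10 to 0.13, so the numbers were not taken to pair samples. With a replicate block the counts were 20, 19 and 20 in 22Rv1DR (construct 1, construct 2 and mean), 8, 4 and 9 in DU145DR, 6 and 0 between constructs in 22Rv1DR and in DU145DR, 15 for the line difference and 33 between controls.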
